A study of Mus musculus with 5 samples.

Results

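The miR-199a/miR-214 and miR-143/miR-145 clusters were followed in the mouse kidney after ischemia reperfusion injury (IRI). Their 5 members on the array were mmu-miR-199a-3p, mmu-miR-199a-5p, mmu-miR-214-3p, mmu-miR-143-3p, and mmu-miR-145a-5p, out of 1247 miRNAs measured. They were chosen as miRNAs of fibroblasts and pericytes (miR-199a/miR-214) and of smooth muscle (miR-143/miR-145), a rule by name that was set with earlier results of these data known. Male C57B/6 mice underwent bilateral renal IRI with 30 min of warm ischemia and were sacrificed when 6, 12, 24, or 48 h of reperfusion had passed. The sham group had surgery and no ischemia. Total RNA of kidney tissue was hybridized to 1-colour Agilent mouse miRNA microarrays, 1 array for sham and 1 for each time point. The labels give 8 mice per time point, and whether their RNA was pooled is not given in the sources used here. With 1 array per group no test between groups was possible, and each error below is that of the scanner software, which covers the spots of 1 array and not the spread between mice.

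MiRNAs are short RNAs cut from hairpin precursors, and each hairpin has a 5p and a 3p arm. The loaded strand pairs with target mRNAs mainly through its seed, bases 2 to 8, and lowers their translation or stability. MiR-199a and miR-214 are made from a long noncoding RNA, Dnm3os, which is active in mesenchymal cells and is known from fibroblast activation and tissue fibrosis. MiR-143 and miR-145 are made from another long noncoding RNA, Carmn, and are the classical miRNAs of contractile smooth muscle, in the kidney that of the vessel walls. In whole kidney RNA, fewer cells of a type and less RNA per cell cannot be told apart.

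The mature strands and hairpins of the miR-199a/miR-214 locus are shown first, since the array reads the strands separately and both strands of miR-199a have copies elsewhere in the genome. In the RefSeq annotation (GRCm38.p6) Mir199a-2 lies at chr1:162217814-162217923 and Mir214 at chr1:162223368-162223477, both on the plus strand, 5444 bases apart, within the spans of Dnm3os and of the protein-coding gene Dnm3. The mature strands miR-199a-5p (chr1:162217844-162217866), miR-199a-3p (chr1:162217883-162217904), and miR-214-3p (chr1:162223438-162223459) read as follows, 5′ to 3′ with the seed in capitals.
mmu-miR-199a-5p: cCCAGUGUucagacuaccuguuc
mmu-miR-199a-3p: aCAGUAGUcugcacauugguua
mmu-miR-214-3p: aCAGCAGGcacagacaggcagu
The 3 seeds are different, so the strands of this cluster are no copies of each other. In both hairpins, the mature strands are in capitals.
Mir199a-2: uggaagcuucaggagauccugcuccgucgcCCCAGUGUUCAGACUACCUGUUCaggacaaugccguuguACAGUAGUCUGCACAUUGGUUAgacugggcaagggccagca
Mir214: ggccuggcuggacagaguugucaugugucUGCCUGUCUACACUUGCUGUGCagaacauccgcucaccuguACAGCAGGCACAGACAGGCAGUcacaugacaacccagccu
The 3p strand of miR-199a has the same sequence from 3 genes, namely Mir199a-2, Mir199a-1 (chr9:21496495-21496564, minus strand, within the span of Dnm2), and Mir199b (chr2:32318460-32318569, within that of Dnm1). The array's probes for miR-199a-3p are assigned to miR-199b-3p as well, and their signal is that of all 3 genes together. The 5p strand has the same sequence from 2 genes, Mir199a-2 and Mir199a-1, and its signal is likewise that of both. The genes Mir143 and Mir145a lie 1301 bases apart, both within the span of Carmn.

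Each member was read by a pair of probes of different length, printed in 20 spots each. The probes decide what can be told apart, so those of the 5p strands of miR-199a and miR-199b and of miR-214-3p are given, 5′ to 3′, with the base at which the 5p probes differ in capitals.
Longer probe of mmu-miR-199a-5p: gaacaggtagtctGaacac
Longer probe of mmu-miR-199b-5p: gaacaggtagtctAaacactgg
Longer probe of mmu-miR-214-3p: actgcctgtctgt
Counted from the 5′ end of the probe, the 19 bases that the first pair shares differ at 1 position (G14A). The probe of miR-214-3p covers bases 10 to 22 of the miRNA, without the seed. How far the 5p probes bind each other's miRNA was not tested.

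Signals were taken as deposited, in intensity units, and summed over the probes whose signal exceeded 3 times its error, which is called detected here. Each probe binds with its own strength, so signals of different miRNAs do not give their relative amounts. Sums over lists, shares of the total, and the highest miRNA of a list, given below, are therefore of signal and not of molecules. Slide 1 carried sham and 6 h, and slide 2 carried 12, 24, and 48 h. In contrasts of sham with 12, 24, or 48 h, the slide and the time after IRI cannot be told apart. The scanner software multiplied signals by an effective feature size of 0.6 on the sham, 6 h, and 48 h arrays, 0.774 at 12 h, and 0.776 at 24 h. Of all miRNAs, 182 were detected on all 5 arrays, and 4 members were among them. The median log2 ratio of these 182 over sham was 0.16, 0.55, 1.03, and −0.23 at 6, 12, 24, and 48 h, and with 1 effective feature size 0.16, 0.18, 0.66, and −0.23. For the 4 spike-in controls, foreign RNAs put in during labelling or hybridization, the mean log2 ratio over sham was 0.07, 1.05, 1.09, and 1.04. Single spike-ins lay between 0.70 and 1.68 at 12 h, 0.61 and 1.58 at 24 h, and 0.63 and 1.28 at 48 h. The members are therefore described on 3 scales, namely unscaled, with 1 effective feature size, and relative to the median of the 182.

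At 48 h the members of the miR-199a/miR-214 cluster were above their sham signal, when most miRNAs were below theirs. For miR-214-3p, read by 1 detected probe, the log2 ratio was only 0.40 with a scanner error of 0.28. With spike-in scaling, however, miR-199a-3p and miR-214-3p were below sham at 48 h, and miR-199a-5p was within its scanner error of sham. MiR-143-3p and miR-145a-5p had their highest unscaled signal at 24 h, and at 48 h they were below or within the scanner error of the sham signal. Relative to miR-143-3p on the same arrays, which no scaling of a whole array changes, the miR-199a/miR-214 members were 0.84 to 1.33 higher on the log2 scale at 48 h over sham.

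MiR-199a-3p, the strand with 3 source genes, had an unscaled signal of 94.2 ± 7.78 in sham and then 93.7 ± 7.76, 114.0 ± 9.49, 193.6 ± 15.9, and 127.8 ± 10.5 at 6, 12, 24, and 48 h. The 24 h array was the highest, by 3.45 combined scanner errors over 48 h, while sham and 6 h did not differ beyond the scanner error, nor did 12 and 48 h. The log2 ratio over sham was −0.01, 0.28, 1.04, and 0.44 at 6, 12, 24, and 48 h, each with an error of 0.17. With 1 effective feature size the value at 12 h was −0.09 and that at 24 h was 0.67. Relative to the median of the 182, the log2 ratio was −0.16, −0.27, 0.01, and 0.67, and on this scale the 48 h array was the only one over 1 scanner error above sham, by 3.99 errors. Both of its probes were detected on all 5 arrays, and the ratio of the longer to the shorter one stayed between 3.08 and 3.39.

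MiR-199a-5p, the other strand, with 2 source genes, had an unscaled signal of 10.4 ± 1.60 in sham and then 11.5 ± 1.87, 18.7 ± 2.76, 27.5 ± 3.90, and 19.3 ± 2.54 at 6, 12, 24, and 48 h. Unscaled, it had the same low pair (sham and 6 h), middle pair (12 and 48 h), and highest array (24 h) as the 3p strand. With 1 effective feature size, the 12 h signal of miR-199a-3p was its lowest (88.3 ± 7.36). That of miR-199a-5p (14.5 ± 2.14) was still above sham and 6 h. The log2 ratio of miR-199a-5p over sham was 0.14 ± 0.32, 0.84 ± 0.31, 1.40 ± 0.30, and 0.89 ± 0.29 at 6, 12, 24, and 48 h. The 12 and 24 h values were 0.47 and 1.03 with 1 effective feature size. Relative to the median it was −0.02, 0.29, 0.37, and 1.12, with the highest value again at 48 h. These signals came from the longer probe alone. The shorter one gave 1.41 to 6.67 and was below its detection level on every array.

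MiR-214-3p, made from the second hairpin of the transcript, had an unscaled signal of 13.2 ± 1.79 in sham and then 15.7 ± 2.16, 12.8 ± 2.4, 15.1 ± 3.15, and 17.4 ± 2.39 at 6, 12, 24, and 48 h. From the lowest, the order was 12 h, sham, 24 h, 6 h, and 48 h, and no neighbours in it differed beyond the scanner error. The log2 ratio over sham was 0.25 ± 0.28, −0.04 ± 0.33, 0.20 ± 0.36, and 0.40 ± 0.28. With 1 effective feature size the value at 12 h was −0.41, and that at 24 h changed sign to −0.18. Relative to the median it was 0.09, −0.59, −0.84, and 0.63. At 24 h only 4 of the 182 miRNAs had a lower log2 ratio over sham. The shorter probe, with signals from −1.56 to 0.19, was at background throughout.

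**Figure D1:**
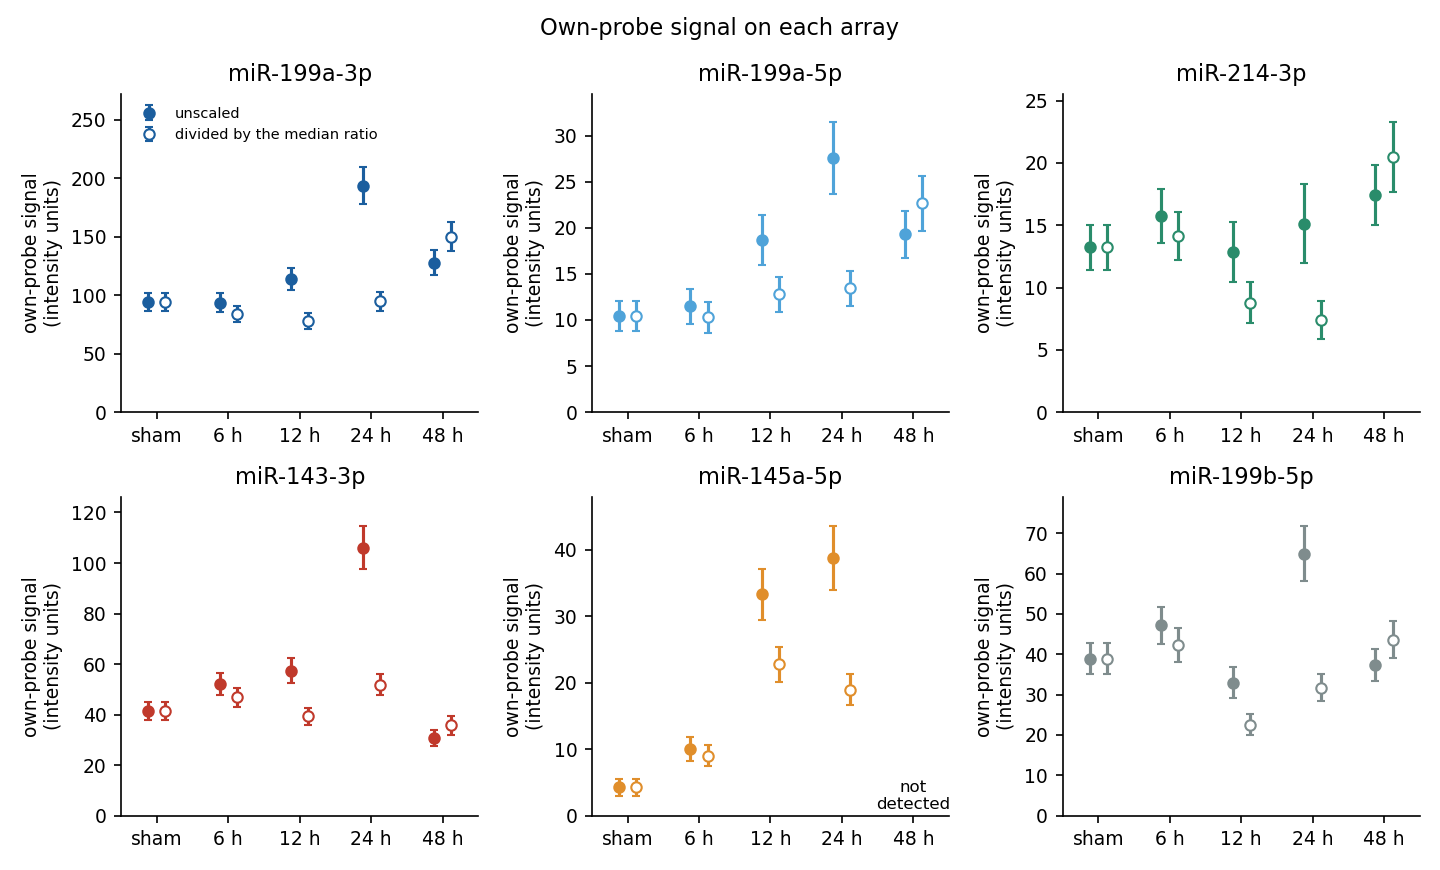
Own-probe signal in intensity units (vertical axes, starting at 0) of the 5 members and of miR-199b-5p on the sham array and on those of 6, 12, 24, and 48 h. Filled points are unscaled, open points are divided by the median ratio over sham of the 182 miRNAs detected on all arrays, and bars are scanner errors. Divided by the median ratio, miR-199a-3p, miR-199a-5p, and miR-214-3p were highest at 48 h, and miR-143-3p was highest at 24 h.

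MiR-143-3p, a smooth muscle miRNA that acts with miR-145 on genes of the contractile state, had an unscaled signal of 41.5 ± 3.44 in sham and then 52.2 ± 4.28, 57.5 ± 5.03, 106.1 ± 8.60, and 30.6 ± 3.22 at 6, 12, 24, and 48 h. The 48 h array was the lowest, 2.31 combined scanner errors below sham, and the 6 and 12 h arrays did not differ beyond the scanner error. The log2 ratio over sham was 0.33 ± 0.17, 0.47 ± 0.17, 1.35 ± 0.17, and −0.44 ± 0.19 at 6, 12, 24, and 48 h. At 12 and 24 h it was 0.10 and 0.98 with 1 effective feature size. Relative to the median it was 0.17, −0.08, 0.32, and −0.21, and the 24 h value lay 1.92 scanner errors above the median. Both probes were detected on all arrays, and their ratio lay between 1.39 and 1.66.

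MiR-145a-5p, its partner in the same transcript, had an unscaled signal of 4.27 ± 1.28 in sham and then 10.1 ± 1.80, 33.3 ± 3.80, and 38.8 ± 4.83 at 6, 12, and 24 h, and was not detected at 48 h. The signals of 12 and 24 h did not differ beyond the scanner error, and both were above 6 h and sham. In sham and at 6 h only the longer probe was detected and at 12 and 24 h both were, so part of the difference is the shorter probe passing its detection level. The longer probe alone gave 4.27 ± 1.28, 10.1 ± 1.80, 21.7 ± 3.0, 23.7 ± 3.66, and, below detection, 4.07 ± 1.68 at 48 h. On this probe the log2 ratio over sham was 1.24 ± 0.50 at 6 h, 2.35 ± 0.48 at 12 h, and 2.47 ± 0.49 at 24 h, against 2.96 and 3.18 at 12 and 24 h for the summed signal. With 1 effective feature size the longer probe had 1.98 at 12 h and 2.10 at 24 h, and relative to the median 1.80 and 1.44.

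The miRNA was near its detection level in sham, where the longer probe gave 4.27 against a level of 3.84. At 48 h the same probe gave 4.07 against 5.05, so the sham and 48 h signals did not differ beyond the scanner error although only the first was called detected. The signal of this probe at 24 h was 4.70-fold its detection level at 48 h, and 3.63-fold with 1 effective feature size. These ratios leave out the scanner errors of both arrays and are no strict bound. In sham 1 of its 20 spots had a processed signal of 202 against a median of 15.0 and a second highest of 30.0. The probe signal did not follow this spot. Divided by the median spot and the effective feature size, it was 0.476 in sham and between 0.457 and 0.494 on the other arrays.

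**Figure D2:**
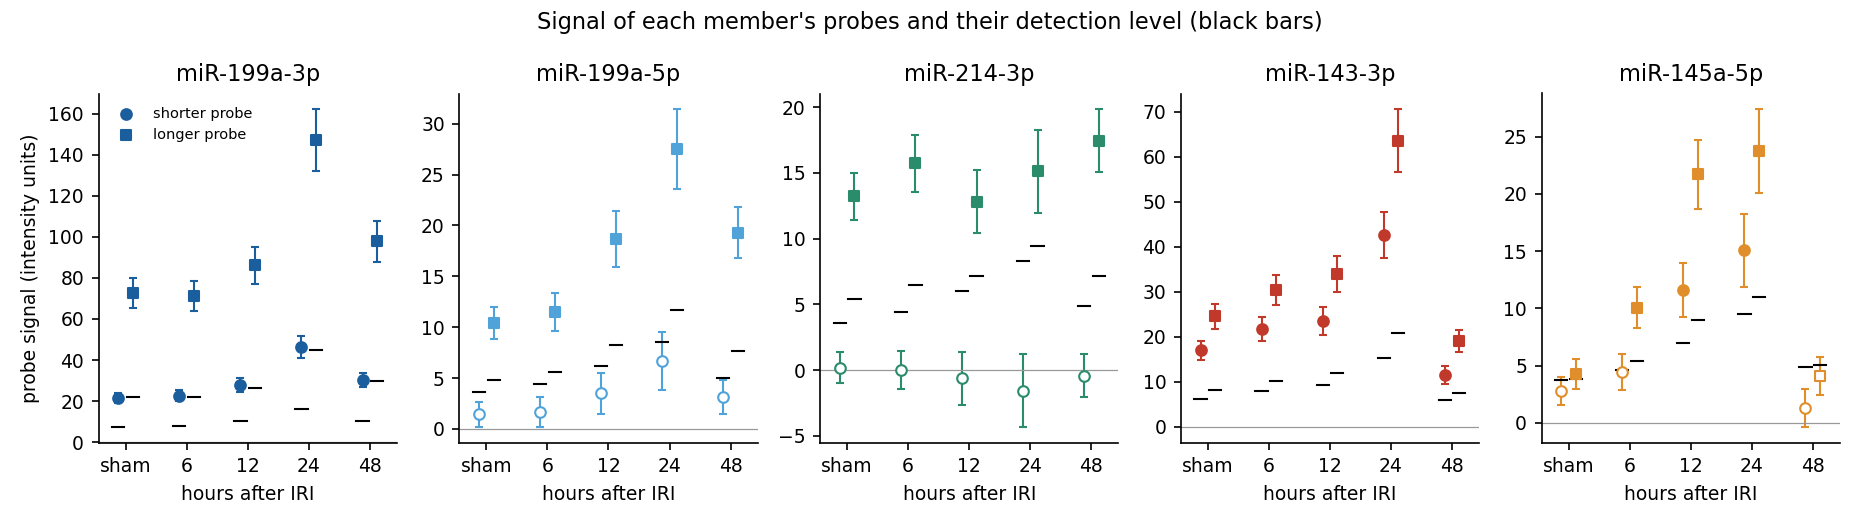
Signal in intensity units of the shorter (circles) and longer (squares) probe of each member on the sham array and on those of 6, 12, 24, and 48 h, with scanner errors. Filled symbols are detected, open symbols are not, and black bars mark the detection level of 3 times the error. The longer probe of miR-145a-5p had 4.27 in sham, 23.7 at 24 h, and 4.07 at 48 h, where its detection level was 5.05.

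The members were then placed among the 182 miRNAs detected on all arrays, of which they are 4. Without scaling, 0 of these 4 members reached a log2 ratio of 1 over sham at 6 h, where 19.2% of the 182 miRNAs did. At 12 h it was again 0 of 4, against 30.8% of all. At 24 h 3 of 4 members reached it, all but miR-214-3p, against 51.1% of all, and 99.5% of the 182 were above sham on this array. On the scale of 1 effective feature size, 0 of 4 members reached it at 12 h (24.2% of all) and 1 of 4, miR-199a-5p, at 24 h (31.3% of all). At 48 h 0 of 4 members reached it, against 7.69% of all. Relative to the median, 0 of 4 members reached a log2 ratio of 1 at 6 h (17.6% of all), at 12 h (20.3% of all), and at 24 h (12.6% of all). At 48 h miR-199a-5p did so, as 1 of 4 members, against 11% of all.

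The median log2 ratio over sham of the 4 members was 0.19, 0.37, 1.20, and 0.42 at 6, 12, 24, and 48 h, and its distance from the median of all 182 was 0.04, −0.18, 0.16, and 0.65. At 48 h 111 of the 182 miRNAs were below sham or equal to it, while miR-199a-3p, miR-199a-5p, and miR-214-3p were above it, with 146, 164, and 144 of the 182 miRNAs below them. MiR-143-3p was below sham, with 59 of the miRNAs below it. Scaled by the spike-ins, miR-199a-3p and miR-214-3p were below sham at 48 h too, with log2 ratios of −0.60 and −0.64. MiR-199a-5p, at −0.15, lay within its scanner error of 0.29. The places of the members among the miRNAs were as given, since 1 factor per array does not change them. For scale, miR-21a-5p, the miRNA best known to rise in injured kidney, had an unscaled log2 ratio over sham of 0.92, 2.26, 3.25, and 2.56.

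MiR-145a-5p was not among the 182. Its summed signal at 12 h had a log2 ratio over sham that was passed by 17 of them, and its longer probe one that was passed by 23. At 24 h these numbers were 2 and 11. Its values at 12 and 24 h were thus among the higher ones on the 3 scales, with an error of about 0.5 that comes mostly from the faint sham signal. With normexp, a background model that adds an offset of 50 and so draws faint signals together, the log2 ratios over sham were 0.44 at 12 h and 0.56 at 24 h, close to the scanner error. From the mean processed signal of the spots they were 0.50 at 6 h, 1.94 at 12 h, and 2.07 at 24 h. The sham mean includes the spot of 202 described above, which raises it and so lowers these 3 ratios.

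Contrasts within slide 2 do not involve the sham array. From 12 to 24 h, on arrays that shared slide and scan, the median log2 ratio of all 182 was 0.46. MiR-199a-3p had 0.76 ± 0.17 and miR-143-3p 0.88 ± 0.17, with 35 and 23 of the miRNAs above them. The values of miR-199a-5p (0.56 ± 0.30) and miR-214-3p (0.24 ± 0.40) lay within the scanner error of the median. For miR-145a-5p the value was 0.22 ± 0.24 by the summed signal and 0.13 ± 0.30 by the longer probe, so these arrays did not differ for it beyond the scanner error.

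From 24 to 48 h the median log2 ratio of all 182 was −1.24. MiR-143-3p had −1.79 ± 0.19, and 149 of the 182 miRNAs had a higher value. MiR-199a-3p had −0.60 ± 0.17 and miR-199a-5p −0.51 ± 0.28, with 20 and 14 miRNAs above them. The value of miR-214-3p was 0.20 ± 0.36, the highest of all 182, and 3 of the 182 were above 0. With 1 effective feature size the median was −0.87, and miR-143-3p had −1.42, miR-199a-3p −0.23, miR-199a-5p −0.14, and miR-214-3p 0.58, so that the value of miR-199a-5p lay within its scanner error of 0. From 12 to 48 h the median was −0.88, while miR-199a-3p had 0.17, miR-199a-5p 0.05, and miR-214-3p 0.44, with 11, 14, and 4 miRNAs above them, and miR-143-3p had −0.91. These values with 1 effective feature size were −0.51 for the median and 0.53, 0.42, 0.81, and −0.54 for the members in the same order. The 48 h array was read in a scan of its own, and the part of this in the contrasts with 48 h was not tested.

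**Figure D3:**
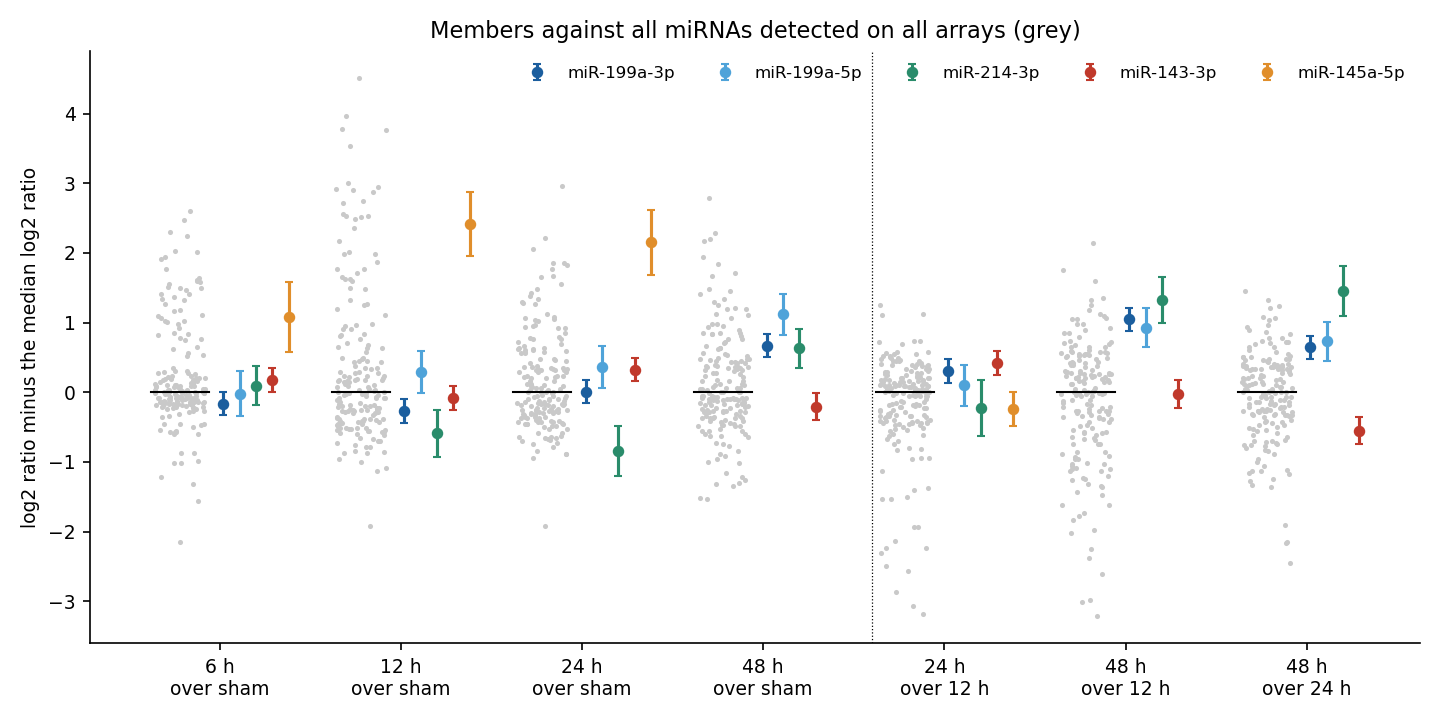
Log2 ratio minus the median log2 ratio (vertical axis) of the 182 miRNAs detected on all arrays (grey, black line at their median) and of the members with their scanner errors, for 4 contrasts with sham and, right of the dotted line, 3 contrasts within slide 2. In all 3 contrasts of 48 h with another array, miR-199a-3p, miR-199a-5p, and miR-214-3p were above the median, and miR-143-3p was at or below it.

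Differences between members on the same arrays are free of any factor shared by all spots of an array. Within the miR-199a/miR-214 cluster, the log2 ratios over sham of both strands of miR-199a differed by −0.14 ± 0.36, −0.57 ± 0.35, −0.36 ± 0.34, and −0.45 ± 0.34 (3p minus 5p) at 6, 12, 24, and 48 h, at most 1.61 scanner errors. MiR-199a-5p minus miR-214-3p was −0.11 ± 0.43, 0.88 ± 0.45, 1.20 ± 0.47, and 0.49 ± 0.40 in the same order. MiR-199a-3p minus miR-214-3p was 0.84 ± 0.40 at 24 h and 0.04 ± 0.32 at 48 h. MiR-214-3p thus differed from both miR-199a strands at 24 h, by 2.13 and 2.57 scanner errors, and at 48 h by 0.13 and 1.21. Since the miR-199a strands have source genes outside Dnm3os, these differences cannot be assigned to the hairpins of that transcript.

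The other cluster was represented by miR-143-3p, since miR-145a-5p was not detected at 48 h. MiR-199a-3p minus miR-143-3p was −0.34 ± 0.24, −0.19 ± 0.24, and −0.31 ± 0.24 on the first 3 arrays after IRI and 0.88 ± 0.26 on the last, at 48 h. The value at 48 h was 3.44 scanner errors from 0, and over the 5 alternative ways of computing the signals that could move it, it lay between 0.41 and 0.93. At 48 h miR-199a-5p minus miR-143-3p was 1.33 ± 0.35, and miR-214-3p minus miR-143-3p was 0.84 ± 0.34. Within slide 2, from 24 to 48 h, the differences were 1.19 ± 0.25 for miR-199a-3p, 1.28 ± 0.34 for miR-199a-5p, and 2.0 ± 0.41 for miR-214-3p. From the 24 h to the 48 h array, miR-143-3p thus fell relative to each of the miR-199a/miR-214 members. Before 48 h, both strands of miR-199a stayed within 2 scanner errors of miR-143-3p. MiR-214-3p was already apart from it at 24 h, in the opposite direction (−1.16 ± 0.40). The part of the separate scan of the 48 h array in these differences was not tested.

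Within the miR-143/miR-145 cluster, the longer probe of miR-145a-5p minus miR-143-3p was 0.91 ± 0.53 at 6 h, 1.88 ± 0.51 at 12 h, and 1.12 ± 0.51 at 24 h. From 12 to 24 h it was −0.76 ± 0.34. Against its sham signal, miR-145a-5p was thus further up at 12 h than miR-143-3p, by 3.70 scanner errors, and from 12 to 24 h miR-143-3p gained on it.

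**Figure D4:**
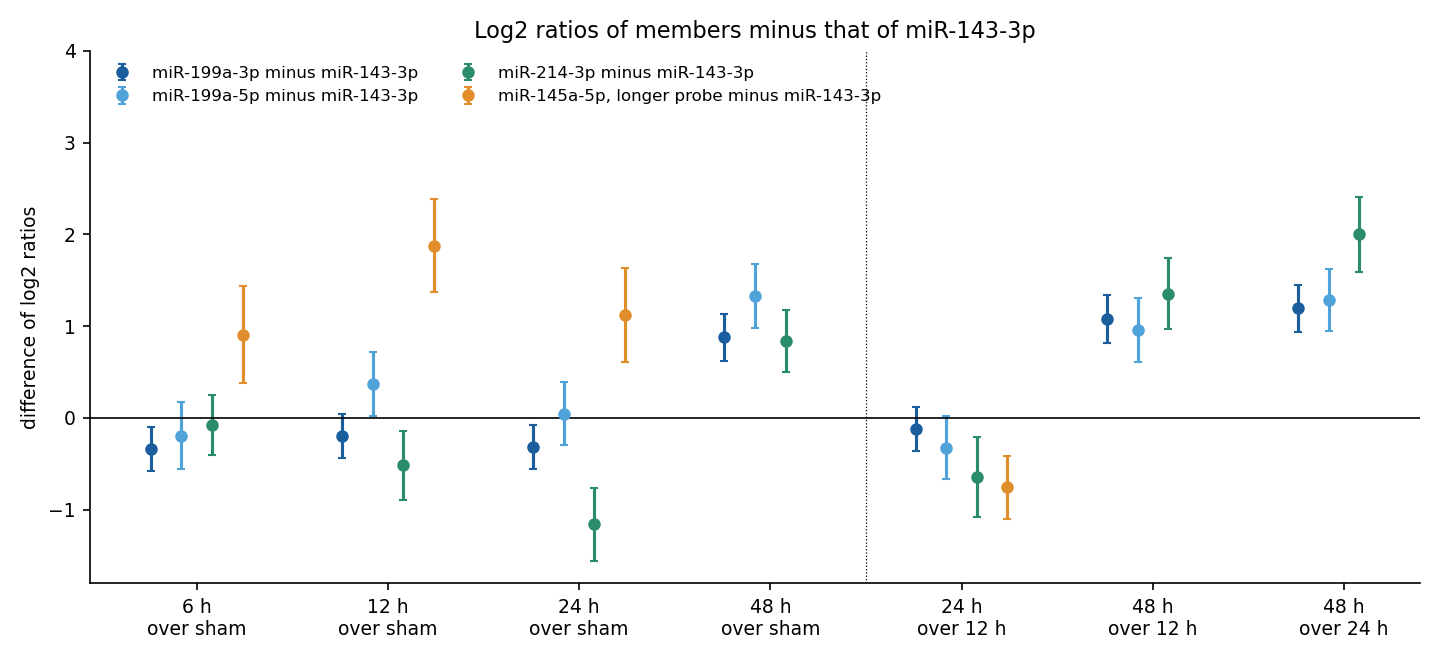
Log2 ratio of each member minus that of miR-143-3p on the same arrays (vertical axis), with the combined scanner error, for 4 contrasts with sham and, right of the dotted line, 3 within slide 2. For miR-145a-5p the longer probe is shown where it was detected on both arrays. The differences of miR-199a-3p at 48 h over sham and at 48 h over 24 h were 0.88 and 1.19.

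The other products of these hairpins were mostly silent on the array. The probes of miR-214-5p, miR-143-5p, miR-145a-3p, and miR-145b, a relative of miR-145a, were below their detection levels on all 5 arrays, which limits these strands to signals under 1.81 to 8.30 per probe. MiR-199b-5p, from a gene that shares its 3p sequence with miR-199a, was detected on all arrays, with 38.9 ± 3.84 in sham and then 47.1 ± 4.65, 32.9 ± 3.87, 65.0 ± 6.83, and 37.3 ± 3.97 at 6, 12, 24, and 48 h. Its log2 ratio over sham was 0.28, −0.24, 0.74, and −0.06. At 12 h its shorter probe was not detected (6.19 against a level of 6.34), and the longer probe alone had −0.04 ± 0.23. MiR-199a-5p minus miR-199b-5p by its longer probe was 0.88 ± 0.38 at 12 h and 0.99 ± 0.37 at 48 h, 2.31 and 2.69 scanner errors from 0. MiR-199a-3p minus the same probe was 0.32 ± 0.28 at 12 h and 0.54 ± 0.28 at 48 h.

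The total gene signal, the summary per miRNA that the scanner software writes, held signal of another miRNA for some members. For miR-214-3p it was 52.9 in sham and then 126.9, 210.0, 214.1, and 76.4 at 6, 12, 24, and 48 h, and the excess over its own probe equalled, within 0.01%, the own-probe signal of miR-2137 on all 5 arrays. The course of that column for miR-214-3p is therefore mostly that of miR-2137, while its own probe stayed between 12.8 and 17.4. For miR-145a-5p the column was 45.8 in sham and 62.2 at 6 h, and the excess equalled the signal of miR-143-3p. In that column the log2 ratio of miR-145a-5p over sham turned to −0.46 at 12 h and −0.24 at 24 h. For miR-199b-5p the excess at 12 h equalled the signal of miR-199a-5p. Neither strand of miR-199a nor miR-143-3p had such an excess on any array.

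The miRNAs with courses most like those of the members were found over the 5 arrays by the root mean square difference of log2 signals, each miRNA centred on its own mean. For miR-199a-3p they were miR-20a-5p (0.08), miR-125a-5p (0.14), and miR-155-5p (0.14), against a median of 0.45 over the 181 others. The same first pair led for miR-199a-5p, with miR-20a-5p at 0.19, miR-125a-5p at 0.20, and then miR-92a-3p at 0.20. MiR-199a-3p was the fourth nearest to miR-199a-5p (0.20), and miR-199a-5p the tenth nearest to miR-199a-3p. For miR-214-3p the nearest were miR-3095-3p (0.15), miR-34b-5p (0.21), and miR-423-5p (0.27), with miR-199a-3p in place 17 and miR-199a-5p in place 57. For miR-143-3p they were miR-425-5p (0.05), miR-23b-3p (0.12), and miR-139-5p (0.14), while the 3 members of the other cluster were in places 115 to 143. With 5 arrays that differ in general brightness, this likeness describes the arrays at hand.

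Lists of miRNAs of other cell types were set beside the members, each by its distance from the median of all 182 at 6, 12, 24, and 48 h over sham. Of 15 other miRNAs of mesenchyme and muscle, 11 were detected on all arrays, with a median distance of −0.06, −0.41, −0.25, and −0.18, and 2 of these 11 were above the median of all at 48 h. Their summed signal lay between 1786 and 3753, and the muscle miRNAs miR-1a-3p and miR-133a-3p and also miR-335-5p were detected on no array. The member with the highest sham signal, miR-22-3p, had 884 in sham and 952 at 48 h. At 48 h the other listed miRNAs of mesenchyme and muscle were thus mostly below the median, and the 3 miR-199a/miR-214 members were above it. How far the signal of this list comes from stromal cells was not tested.

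MiR-126-3p, the miRNA of endothelium, had a signal of 827 in sham and then 881, 898, 1284, and 586 at 6, 12, 24, and 48 h, and a distance from the median of −0.27 at 48 h. Of 10 tubule miRNAs, 9 were detected on all arrays, their summed signal lay between 2654 and 5584, and their median distance was −0.00, −0.24, −0.26, and −0.16. MiR-215-5p was detected on no array, and miR-30a-5p, the highest of the list in sham, had 1279 in sham and 955 at 48 h. MiR-126-5p of the endothelium list was detected in sham alone. Like miR-143-3p, which lay 1.09 scanner errors below the median of all at 48 h, miR-126-3p and the median of the tubule list lay below it. Of the 9 tubule miRNAs, 2 were above it.

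Of 6 leukocyte miRNAs, 2 were detected on all arrays, and their median distance was 0.58, 0.44, −0.14, and 0.97. MiR-223-3p, a miRNA of neutrophils and other myeloid cells, had 24.8 in sham and then 55.7, 82.7, 39.5, and 41.7 at 6, 12, 24, and 48 h, and miR-142-5p and miR-150-5p were detected on no array. MiR-146a-5p of this list had 9.63 in sham, was detected up to 24 h, and was not detected at 48 h. MiR-142-3p had 4.74 in sham and 5.17 at 48 h, and was not detected at 6 and 24 h. The summed signal of the list lay between 47.8 in sham and 111 at 12 h. Of the red blood cell miRNAs only miR-451a was detected, with 159 in sham and then 500, 234, 538, and 105 at 6, 12, 24, and 48 h. Of the 6 listed leukocyte miRNAs, the 2 detected on all arrays were above the median at 48 h, as the miR-199a/miR-214 members were. Their part in the course of these members was not tested. The 5 members together made up 0.251% of the own-probe signal of the sham array, and between 0.19% and 0.278% on the arrays after IRI. Without the 10 most abundant miRNAs of each array, the share was 0.692% in sham and then 0.616%, 0.559%, 0.769%, and 0.916% at 6, 12, 24, and 48 h. The highest array was thus 24 h with all miRNAs and 48 h without these 10.

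**Figure D5:**
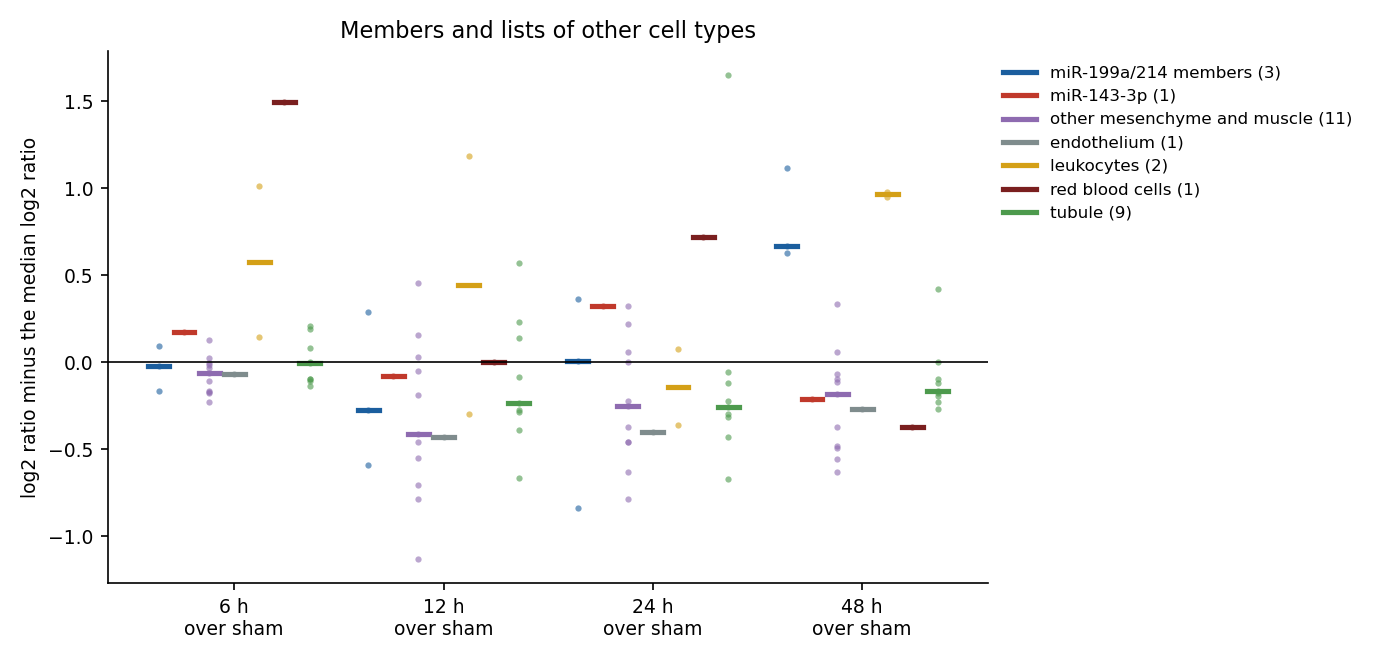
Log2 ratio over sham minus the median log2 ratio of all 182 miRNAs (vertical axis) at 6, 12, 24, and 48 h for the miR-199a/miR-214 members, miR-143-3p, and lists of other cell types. Small points are single miRNAs, thick bars their medians, and the number of miRNAs is in the legend. At 48 h the medians of the miR-199a/miR-214 members (0.67) and of 2 leukocyte miRNAs (0.97) were above 0, and those of the other lists were below it.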

How the data were processed

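Groups were taken from the sample labels. Intensity values were used as deposited. They are the output of Agilent Feature Extraction (version 10.7.1.1 in the submitters' processing notes) per spot, per probe, and per miRNA, with the background subtracted, a spatial trend removed, and no normalization from array to array. How the log2 table deposited beside them was made is not given in the sources used here, so its scale and centring are unknown and it served as an alternative only. Signals of a miRNA's detected probes (above 3 times the error) were summed, errors were added in quadrature, and log2 ratios were computed. The number of arrays limits the precision.

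Named in the text are the members, their other arms and relatives, the 3 miRNAs with the most similar course for each member, and miR-21a-5p. Of the cell type lists, the highest miRNA in sham and some others are named. The members and lists were chosen with earlier results of these data known. MiR-486-5p of the red blood cell list was not measured under this name.

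Alternatives were 1 effective feature size, centring on the median, quantile normalization, spike-in and 75th percentile scaling, total gene signal, other probe sets and detection levels, mean processed signal, normexp with an offset of 50, and the processed table. Ratios, medians, and ranks were tested on simulated data of 300 miRNAs, where 9 of 9 checks were recovered. The simulated signals were brighter than the faintest members and had smaller errors, so this checked the computation and not the precision of faint signals. Sequences are from RefSeq (GRCm38.p6) and the array files. Normexp used limma 3.58.1 in R 4.3.3, and the rest used Python 3.11.15 with pandas 2.3.3 and numpy 2.4.6, with plots by matplotlib 3.10.9.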

Additional observations from a re-analysis of the deposited data

How the results depend on the processing

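Unscaled, the median log2 ratio over sham of the 4 members detected on all arrays was 0.19, 0.37, 1.20, and 0.42 at 6, 12, 24, and 48 h. Given below are the medians that moved by more than the scanner error and the members' values that exceeded it and changed sign, and the cause was not tested unless named. With 1 effective feature size, which by construction lowers 12 and 24 h, the median was 0.0046 at 12 h and 0.83 at 24 h, and miR-199a-3p turned to −0.093 at 12 h. Centred on the median of all, with or without 1 size, the median of the members was −0.18, 0.16, and 0.65 at 12, 24, and 48 h, and at 12 h miR-199a-3p was −0.27 and miR-143-3p −0.079. Quantile normalization gave medians of −0.30, −0.78, and −0.094 at 6, 12, and 24 h. Under it miR-199a-3p was −0.87 and −0.15 at 12 and 24 h, miR-199a-5p −0.14 and −0.034 at the same times, and miR-143-3p −0.28 and −0.69 at 6 and 12 h. Spike-in scaling gave medians of −0.68, 0.11, and −0.62 at 12, 24, and 48 h. With it miR-199a-3p was −0.78, −0.049, and −0.60 at 12, 24, and 48 h, miR-199a-5p −0.21 and −0.15 at 12 and 48 h, miR-214-3p −0.64 at 48 h, and miR-143-3p −0.58 at 12 h. Scaling to the 75th percentile gave medians of −0.10, −0.26, and 0.036 at 6, 12, and 24 h, with miR-199a-3p at −0.36 and −0.12 at 12 and 24 h and miR-143-3p at −0.16 at 12 h. The processed table gave medians of −0.39, −1.45, and −0.33 at 6, 12, and 24 h. In it miR-199a-3p was −0.90 and −0.15 and miR-199a-5p −2.0 and −0.52 at 12 and 24 h, and miR-143-3p −0.24 and −0.70 at 6 and 12 h. The mean processed signal gave medians of −0.016 and 0.82 at 12 and 24 h and miR-199a-3p at −0.14 at 12 h. Normexp gave medians of 0.013, 0.45, and 0.25 at 12, 24, and 48 h, miR-199a-3p at −0.071 at 12 h, and 0.41 for miR-199a-3p minus miR-143-3p at 48 h. The total gene signal gave medians of 0.66 and 1.38 at 12 and 24 h, and −0.46 and −0.24 for miR-145a-5p at 12 and 24 h, since its sham value includes miR-143-3p. MiR-214-3p at 24 h, whose unscaled 0.20 lay within its error, was −0.18 with 1 size, −1.18 by quantile normalization, −0.89 by spike-ins, −0.97 at the 75th percentile, and −3.77 in the processed table, which gave −3.71 at 12 h. Without a detection filter, and with the brightest probe alone, no median of the members moved by more than its error. Normexp gave 0.44 and 0.56, and the mean processed signal 1.94 and 2.07, for miR-145a-5p at 12 and 24 h. In sham the mean processed signal includes 1 spot far above the others. The brightest probe gave 2.35 and 2.47. With detection above 2 or 5 times the error, 3 of 24 and 2 of 22 signals moved, namely those of miR-199a-5p at 24 h (34.2) and of miR-145a-5p. At 5 times the error 2 of 24 signals were lost, miR-145a-5p in sham, and with it every ratio of this miRNA over sham, and miR-214-3p at 24 h, which then leaves the set detected on all arrays. The share of miRNAs below a member moved by less than 10 percentage points in 16 of 16 cases both among miRNAs detected on the 2 arrays compared and among those with a sham signal of at least 10.

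No paired analysis was possible because sham and every time point had a single array. Signals near the detection level limit miR-145a-5p in sham and at 48 h, and miR-199a-5p and miR-214-3p rest on 1 detected probe each.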
